A study of Rattus norvegicus with 4 samples.

Results

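The genes of the interleukins, of the tumor necrosis factor (TNF) superfamily and of their receptors were compared in rat colon between the MSCT group, which received mesenchymal stem cells (MSCs), and the control group. A row of the deposited array table was taken as a member when its RefSeq accession maps to a symbol that starts with Il and a digit, with Tnfsf or with Tnfrsf, or that is Tnf, Lta, Ltb or Fas. Il1rn, the gene of the IL-1 receptor antagonist, was left out by this rule. In total, 65 of the 26420 rows were members, 1 row per gene. Of these, 38 held a value on all 4 arrays and 27 were blank on all 4.

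Interleukins and TNF superfamily ligands carry signals between leukocytes, epithelium and stroma. Most interleukin receptors pass the signal to Janus kinases and STAT transcription factors, the receptors of the IL-1 family to the adaptor MyD88, and the TNF receptors to TRAF adaptors and NF-kB or, through a death domain, to caspases. Several family members, such as Il1r2, Il18bp, Il22ra2 and Tnfrsf11b, encode decoy receptors or binding proteins that capture a ligand without passing a signal on. In the inflamed colon these genes are known for the recruitment of leukocytes, and antibodies against TNF are used to treat inflammatory bowel disease (IBD).

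Total RNA came from colon tissue of male rats and was measured on one-color NimbleGen arrays labeled with Cy3 (2 control and 2 MSCT arrays). The labels number the arrays of a group as replicates 1 and 2, and each array is taken here to come from 1 rat. The rats of the MSCT group had IBD induced by TNBS (2,4,6-trinitrobenzene sulfonic acid, instilled into the colon of Sprague Dawley rats) and then received MSCs that carried green fluorescent protein through the tail vein. The control rats received no MSCs. The study's text calls them IBD rats and the sample descriptions call them normal rats, so they are named only the control group here, and a difference between the groups cannot be told apart from one between animals with and without TNBS. The labels give no age and no day after transplantation, and the study names 2 different days for these chips in its methods and its results, so no day is assigned here. The pieces were whole tissue that covered the lesion, so fewer cells of a type and less RNA per cell cannot be told apart. All 8 genes with a row in a list of colon epithelium and all 5 in a list of smooth muscle were measured, and none of these 13 genes passed the screen described below. Of the 8 epithelium genes, 6 were higher by their means, and 5 had both MSCT arrays above both control arrays (21.3% of all rows and 27.6% of named genes did). Their summed intensity ran from 145702 to 153306 over the control arrays and from 160426 to 165202 over the MSCT arrays. In smooth muscle, 4 of 5 were higher and all had overlapping groups. Other tissue lists held genes with an unadjusted limma p under 0.05. All 4 measured fibroblast genes were higher in the MSCT group by their means, with Col1a2, a collagen chain, at an unadjusted limma p of 0.0412 (difference 0.62, limma adjusted p of 0.399) and a summed intensity that ran from 22659 to 32094 over the control arrays and from 37885 to 40191 over the MSCT arrays. All 3 skeletal muscle genes were higher by their means as well, with sums from 1571 to 2668 and from 4421 to 7287, and Acta1, the actin of skeletal muscle, passed the screen (difference 2.06, limma adjusted p of 0.289). The part of these lists in the differences of the families was not tested. None of the 3 measured mast cell genes, the 2 of endothelium and the 1 of adipocytes passed an unadjusted limma p of 0.05. Of the mast cell genes 2 were higher and 1 lower by their means, and Tpsb2 was higher on both MSCT arrays (difference 1.03, standard error 0.48). The mast cell proteases Mcpt2 and Mcpt1 were not in this list, and the study places them first among its genes higher in the MSCT group.

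The arrays were close in brightness, with a median intensity over all rows between 847.6 and 892.7. Values are given as log2 intensity, first for control replicates 1 and 2 and then for MSCT replicates 1 and 2, and a difference is MSCT minus control. Groups were compared by limma, which fits each row by a linear model and moderates its variance with that of the other rows, and Benjamini-Hochberg adjusted p-values are over all 18350 measured rows. The limits of the study's screen were an unadjusted p under 0.05 together with a change of more than 2-fold. Here, the screen means these limits with the limma p unless another test is named, and 850 rows passed it. With a plain t-test, called the methods' t-test below, 388 rows passed the same limits. The study reports this same number of genes past its screen. With 2 arrays in each group, the smallest two-sided p of an exact permutation test is 0.33, and the p-values of limma depend on the moderated variance.

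The families did not shift in 1 direction. Of the 38 measured genes, 19 were higher and 19 lower in the MSCT group by their means, and 48.0% of all measured rows and 55.8% of the 6968 named genes were higher. The median log2 difference of the 38 genes was 0.01, against -0.02 over all measured rows and 0.05 over named genes. The screen was passed by 3 genes (7.89%), against 4.63% of all measured rows and 4.91% of named genes. Il2rg and Tnfrsf1b rose (5.26%, against 2.12% of all rows and 3.13% of named genes that rose) and Tnfsf10 fell (2.63%, against 2.51% and 1.78%). An unadjusted p under 0.05 was found for 5 genes (13.2%, against 12.0% of all rows and 12.3% of named genes), with Tnfrsf12a and Ltb beside these 3. No gene passed an adjusted p of 0.05 by limma, as no row of the whole table did, and the smallest adjusted p of the families was 0.260. By the methods' t-test, 1 gene (Tnfsf10) passed the limits of the screen, as did 388 of the 18350 rows. That test gave 3 genes an unadjusted p under 0.05, and 0 passed after adjustment. All rows were not counted at that p by the methods' t-test, so these 3 genes have no share to be set against. In 8 genes both MSCT arrays lay above both control arrays (21.1%, against 21.3% of all rows and 27.6% of named genes) and in 9 both lay below (23.7%, against 24.5% and 20.2%). Each of these shares was close to that of the whole table, and only a few genes separate the share past the screen from it.

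**Figure D1:**
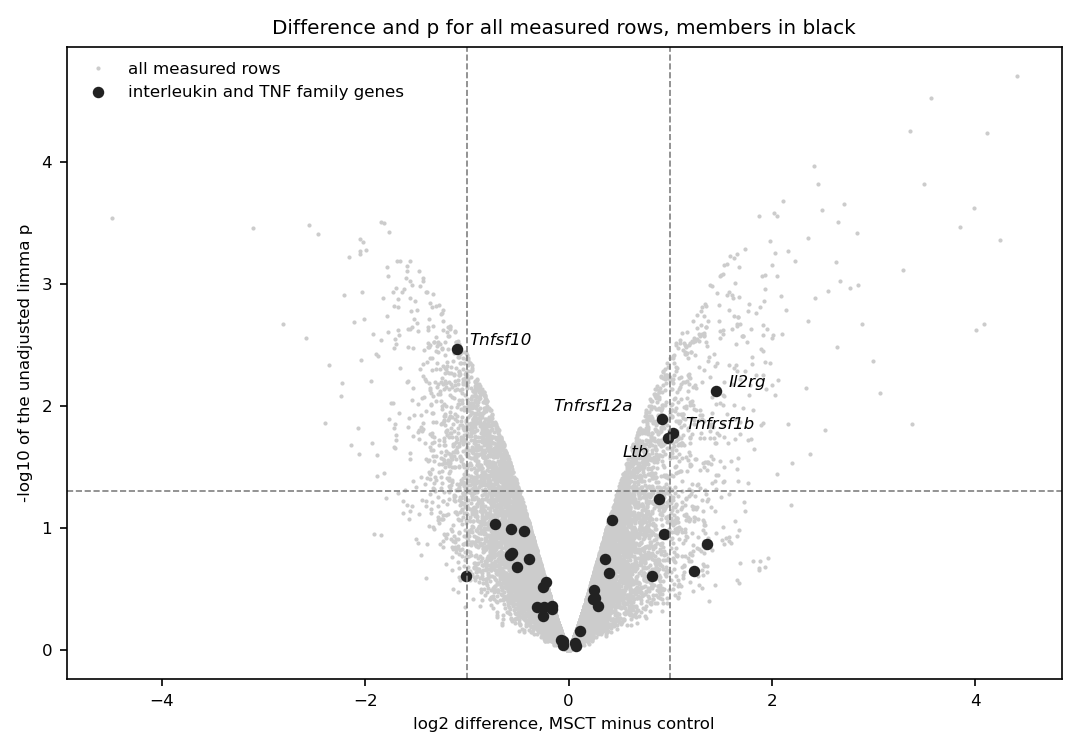
Difference between the groups on the log2 scale (x axis, MSCT minus control) against the negative log10 of the unadjusted limma p (y axis). Grey points are all 18350 measured rows, black points the 38 measured genes, and dashed lines mark a p of 0.05 and a change of 2-fold. The 5 genes above the horizontal line are named, and the others lie below it.

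Genes known as the main inflammatory cytokines were mostly blank. Among the interleukin genes, 13 of 22 were blank on all 4 arrays, and these included Il1b and Il6 (classical inflammatory cytokines), Il10 (an anti-inflammatory cytokine), Il12b (the subunit shared by IL-12 and IL-23), Il17f, and Il2, Il4, Il5 and Il13, the cytokines of helper T cells. Tnf and Lta were blank among the TNF ligands, together with Tnfsf4 and Tnfsf9, the ligands of the costimulatory receptors OX40 and 4-1BB. Of the receptors, 7 of 22 interleukin receptors were blank, Il2ra, Il1rl1 and Il13ra2 among them, and 3 of 11 TNF receptors (Tnfrsf8, Tnfrsf9 and Tnfrsf18). In total 41.5% of the member rows were blank, against 30.5% of all rows and 27.5% of the rows with a name. Why a row is blank is not described in the sources used here, so a blank row gives no level and no comparison. Of the 114 genes of the reference table that the rule would take, 49 had no row matched by accession, among them Il17a, Il22, Il1r1 and Il10rb, and were not analysed here.

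**Figure D2:**
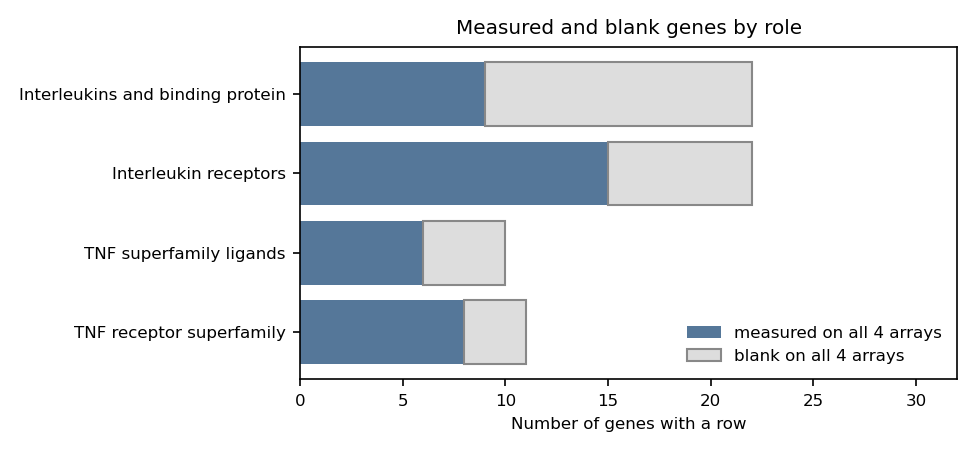
Number of genes with a row (x axis) by role, split into genes measured on all 4 arrays and genes blank on all 4. Interleukins had 9 measured and 13 blank genes, interleukin receptors 15 and 7, TNF ligands 6 and 4, and TNF receptors 8 and 3.

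The largest rise was that of a receptor chain of lymphocytes. Il2rg (NM_080889) encodes the common gamma chain, the subunit shared by the receptors of IL-2, IL-4, IL-7, IL-9, IL-15 and IL-21. The control arrays gave 8.0 and 7.26 and the MSCT arrays 9.16 and 9.00 for its log2 intensity. Both MSCT arrays lay above both control arrays, and the MSCT arrays were closer together than the control arrays. The difference was 1.45 (standard error 0.31), or 2.73-fold, with a limma adjusted p of 0.292. It lay between 1.08 and 1.82 with any 1 array left out and passed the screen each time, while the methods' t-test gave an unadjusted p of 0.0629.

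The other chains of this receptor family did not follow Il2rg past the test. Il2rb, the beta chain of the IL-2 and IL-15 receptors, had control values of 6.37 and 7.54 and MSCT values of 7.12 and 8.44, and the groups overlapped (difference 0.82, standard error 0.62). Replicate 1 was the lower array in both groups. Il4r, the IL-4 receptor, was slightly lower on both MSCT arrays (10.50 and 10.62, against 10.76 and 10.68), and Il9r differed by -0.05. Of their ligands, Il15 was measured at 10.27 and 9.62 in the control group and at 10.03 and 9.35 in the MSCT group, and Il7, a survival factor of lymphocytes, differed by 0.11 (standard error 0.27). Il15 and Il7 had overlapping groups. Jak3, the kinase bound to the common gamma chain, is not a member of the families. It was higher on both MSCT arrays (9.24 and 9.62, against 8.88 and 8.23), with a difference of 0.88 (standard error 0.31), an unadjusted p of 0.0420 and a limma adjusted p of 0.402, and did not pass the limit of 2-fold.

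Markers of leukocytes differed in how they moved beside Il2rg. In the T cell list, 3 of 8 genes with a row were measured, 3 of 3 were higher by their means and none passed the screen (Cd4 0.37, Cd3g 0.13, Cd8a 0.01). Their summed intensity was 550 to 721 on the control arrays and 694 to 794 on the MSCT arrays, and the defining markers Cd3d, Cd247, Cd2, Cd5 and Cd8b were blank. In the macrophage list, 4 of 5 genes with a row were measured, 3 of 4 had an unadjusted p under 0.05 with a higher MSCT level, and 2 of 4 passed the screen. These were Cd68 (difference 1.29, standard error 0.21), a lysosomal protein of macrophages, and Csf1r (1.00, standard error 0.18), their growth factor receptor. Adgre1 differed by 0.64 and Cd14 by -0.04, Itgam was blank, and the summed intensity of the list ran from 11834 to 13363 over the control arrays and from 14138 to 16346 over the MSCT arrays. Mzb1, the 1 measured gene of the B and plasma cell list, differed by 1.26 (standard error 0.19), with a summed intensity of 99 to 111 against 244 to 260. The defining marker Cd79b was blank. The 1 measured neutrophil marker, S100a9, differed by 0.54, and S100a8 was blank. The part of these markers in the differences of Il2rg, Tnfrsf1b and Ltb was not tested.

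The receptors of TNF were measured although their ligand was blank. Tnfrsf1b (NM_130426), which encodes TNF receptor 2 of leukocytes and endothelium, was at 8.34 and 8.49 in the control group and at 9.75 and 9.15 in the MSCT group. The groups did not overlap, and MSCT replicate 1 was the highest array. The difference was 1.03 (standard error 0.28), or 2.04-fold, just over the required change of 2-fold (adjusted p of 0.330 by limma). It no longer passed without control replicate 1 (0.95, unadjusted limma p of 0.0716) or without MSCT replicate 1 (0.73, unadjusted limma p of 0.0774), and it did not pass by the methods' t-test. Tnfrsf1a, the receptor with a death domain that most cells carry, was also higher on both MSCT arrays (11.77 and 11.71, against 11.58 and 11.19), but by 0.36 only (standard error 0.22). Ltb, the membrane anchor of lymphotoxin, was at 7.39 and 6.88 in the control group and at 7.95 and 8.28 in the MSCT group, again without overlap. Its difference was 0.98 (standard error 0.27), or 1.98-fold, with a limma adjusted p of 0.338. Ltb therefore lay just below the limit of the screen and Tnfrsf1b just above it. After quantile normalization and with equal array medians, Ltb passed as well. Its unadjusted p was above 0.05 by the methods' t-test (0.0825), with a variance that depends on intensity (0.0679 by limma), without control replicate 2 (difference 0.73, limma p of 0.0646) and without MSCT replicate 2 (difference 0.82, limma p of 0.0864). With any 1 array left out, the difference of Ltb lay between 0.73 and 1.24. Ltbr, the lymphotoxin receptor, differed by -0.10.

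The largest fall was that of a death ligand. Tnfsf10 (NM_145681) encodes TRAIL, which induces apoptosis through death receptors. It was at 11.12 and 11.01 in the control group and at 9.88 and 10.05 in the MSCT group. Replicates lay close together while both MSCT arrays were far below the control arrays. The difference was -1.10 (standard error 0.19), or 2.14-fold lower, with a limma adjusted p of 0.260. Tnfsf10 was the gene with the steadiest call. It passed the screen by limma with any 1 array left out, where the difference lay between -1.18 and -1.01, and also by the methods' t-test, after both normalizations and in the brighter 50% of rows, where its adjusted p was 0.0260. Of the other death genes, Fas was at 9.70 and 9.32 in the control group and at 9.32 and 8.59 in the MSCT group (difference -0.56, standard error 0.33), with control replicate 2 and MSCT replicate 1 at about the same level. Casp8, the caspase that death receptors activate, differed in the other direction (0.78, standard error 0.19, unadjusted p of 0.0125 and limma adjusted p of 0.324), and Fadd, the adaptor between them, differed by -0.24. Faslg was blank.

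The stretches of 250 bases before the transcript start were taken from RefSeq for the 3 genes past the screen, so that the regulatory sequence of the risen and fallen genes can be set side by side. They are written 5′ to 3′ on the strand of the gene in the build GRCr8, at chrX:70439001-70439250 (minus strand) for Il2rg, chr5:162387412-162387661 (minus strand) for Tnfrsf1b and chr2:112136689-112136938 (plus strand) for Tnfsf10. The start is the one given by the promoter table, and other annotated starts of Il2rg and Tnfsf10 lie further upstream, so that these 2 stretches overlap the annotated gene. Capitals mark matches to any of 5 motifs, searched on both strands. These were the NF-kB pattern (GGG and CC with any 5 bases between them), the interferon response core (GAAA and GAAA with any 2 bases between them), TTCNNNGAA of STAT factors, CCGGAAG of ETS factors and TATAAA.
Il2rg: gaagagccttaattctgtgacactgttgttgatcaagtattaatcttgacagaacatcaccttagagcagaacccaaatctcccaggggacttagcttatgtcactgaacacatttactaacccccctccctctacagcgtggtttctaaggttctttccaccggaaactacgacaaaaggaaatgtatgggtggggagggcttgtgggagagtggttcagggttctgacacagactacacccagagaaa
Tnfrsf1b: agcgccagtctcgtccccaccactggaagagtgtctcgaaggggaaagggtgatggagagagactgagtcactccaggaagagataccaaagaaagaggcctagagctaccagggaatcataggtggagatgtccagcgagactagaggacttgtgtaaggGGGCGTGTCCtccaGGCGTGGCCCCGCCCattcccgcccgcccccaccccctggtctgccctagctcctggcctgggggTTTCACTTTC
Tnfsf10: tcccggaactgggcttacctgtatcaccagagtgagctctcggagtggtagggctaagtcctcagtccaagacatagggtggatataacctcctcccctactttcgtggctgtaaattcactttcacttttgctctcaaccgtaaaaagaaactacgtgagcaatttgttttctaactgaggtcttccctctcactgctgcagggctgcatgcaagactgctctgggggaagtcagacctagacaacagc
Tnfrsf1b held 4 matches, 3 of the NF-kB pattern, of which the second and the third overlap, and 1 of the interferon response core in the 10 bases next to the start. Il2rg and Tnfsf10 held 0 matches to these letters in this window. The NF-kB pattern is a loose one, found in 42.3% of the 33469 stretches of this length in the promoter table and in 14 of the 27 measured genes of the families with an entry. The interferon response core was found in 3.41% of all stretches and in 2 of the 27 genes, Il6st and Tnfrsf1b. TTCNNNGAA was found in 7.67%, CCGGAAG in 7.27% and TATAAA in 12.9% of all stretches, and in 2, 2 and 4 of the 27 genes.

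**Figure D3:**
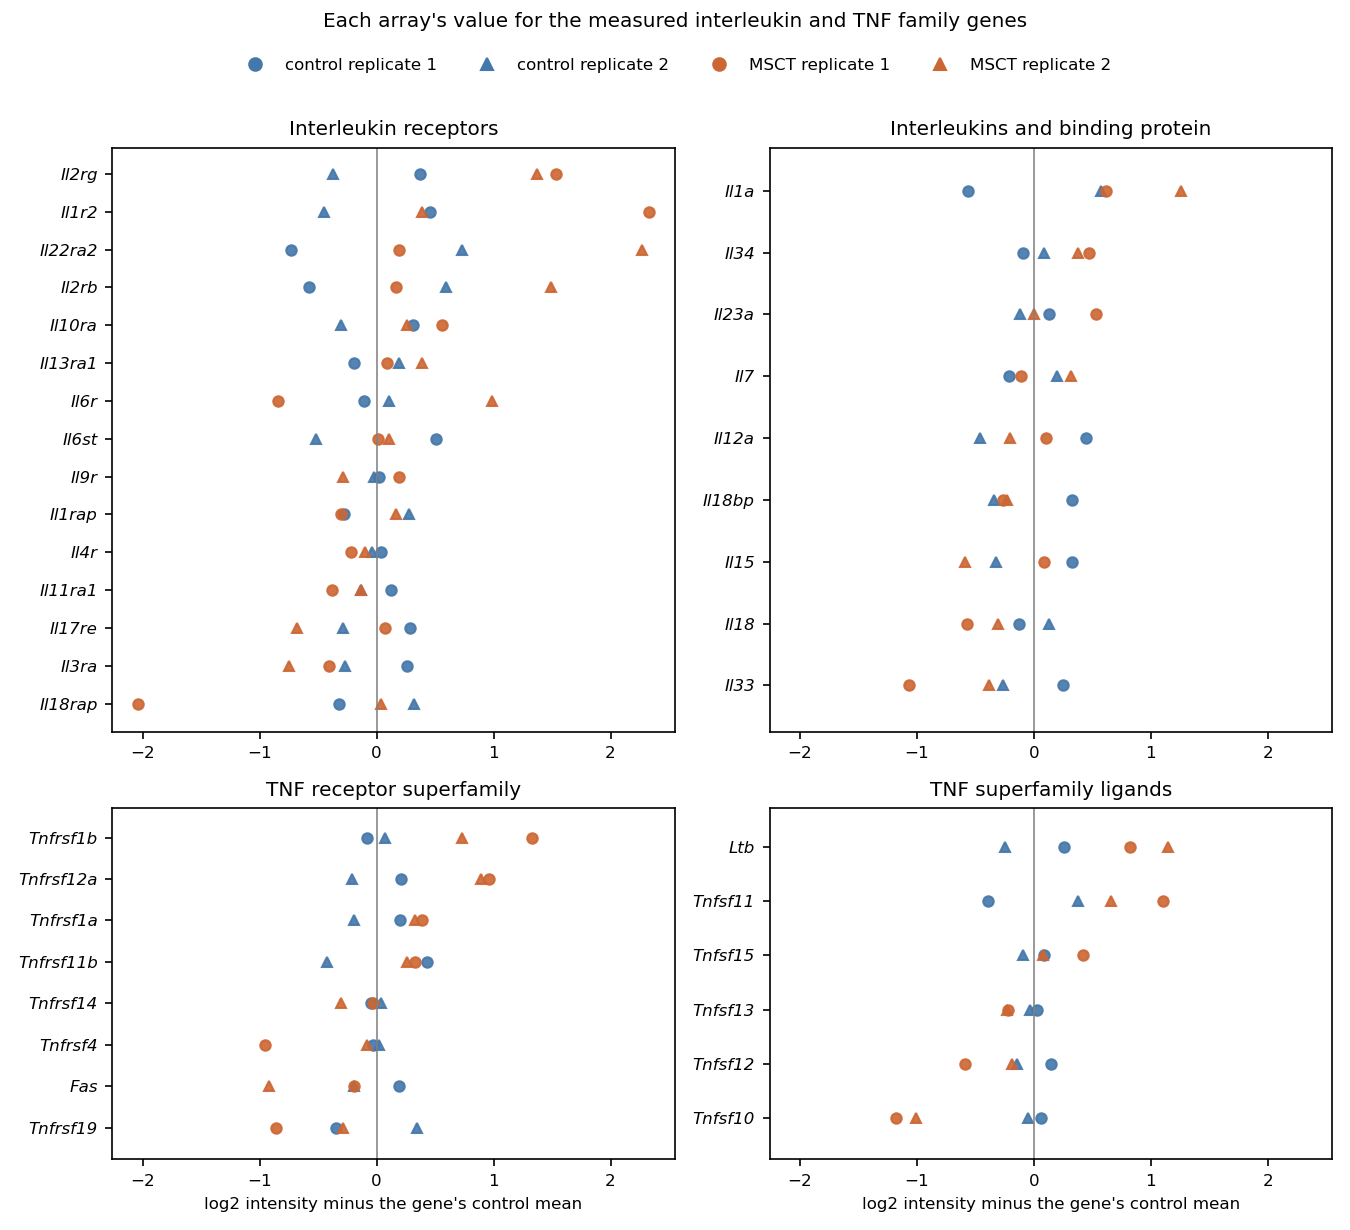
Log2 intensity of each array minus the control mean of the gene (x axis) for the 38 measured genes (y axis), in 4 panels by role and ordered by the difference between groups. Blue symbols are control arrays and orange symbols MSCT arrays, with circles for replicate 1 and triangles for replicate 2. Il2rg, Tnfrsf1b, Tnfrsf12a and Ltb have both MSCT arrays on the right of the control arrays, Tnfsf10 has both on the left, and Il1r2, Il22ra2, Il6r and Il18rap have replicates far apart.

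In the TWEAK and APRIL branch of the TNF superfamily, a ligand and its receptor lay on opposite sides. Tnfrsf12a (NM_181086), the receptor of TWEAK that is known from injured tissue, was at 11.74 and 11.32 in the control group and at 12.49 and 12.42 in the MSCT group. The difference was 0.92 (standard error 0.23), or 1.90-fold, with an unadjusted p of 0.0128 and a limma adjusted p of 0.324, and so below the limit of 2-fold. With a variance that depends on intensity its adjusted p was 0.0299, and without MSCT replicate 1 its unadjusted limma p was 0.0606. The difference of Tnfrsf12a lay between 0.71 and 1.13 with any 1 array left out. Tnfsf12, the gene of TWEAK, was lower on both MSCT arrays (8.84 and 9.24, against 9.58 and 9.29), with a difference of -0.39 (standard error 0.25) that did not pass the test. Tnfsf13, the gene of the B cell factor APRIL, had the closest replicates of the families, at 12.74 and 12.68 against 12.49 and 12.48. Its groups did not overlap, but the difference was only -0.22 (standard error 0.18) and had an unadjusted p of 0.278 by limma and of 0.0196 by the methods' t-test.

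Of the other TNF family genes none passed the test. Tnfsf11 (RANKL), a factor of osteoclasts and of lymphoid tissue, was at 6.62 and 7.39 in the control group and at 8.11 and 7.67 in the MSCT group, without overlap (difference 0.89, standard error 0.35, unadjusted limma p of 0.0575). After quantile normalization its unadjusted p was 0.0451. Its decoy receptor Tnfrsf11b (osteoprotegerin) was at 9.84 and 8.99 in the control group and at 9.74 and 9.67 in the MSCT group, and the control arrays enclosed the MSCT arrays. Tnfrsf4 (OX40), a costimulatory receptor of T cells, differed by -0.51, which came to -0.07 without MSCT replicate 1 and to -0.95 without MSCT replicate 2. Tnfrsf19, a receptor of the family expressed in epithelial stem cells, differed by -0.58 (standard error 0.35) with overlapping groups. Tnfsf15 (TL1A), a ligand known as a risk gene of IBD, differed by 0.25 (standard error 0.22), and Tnfrsf14 (HVEM), a receptor of epithelium and lymphocytes, by -0.16 (standard error 0.20).

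In the IL-1 family, no gene passed the test, and the differences ran in both directions. Il33, which is stored in the nuclei of epithelial and stromal cells, was at 11.14 and 10.63 in the control group and at 9.82 and 10.51 in the MSCT group (difference -0.72, standard error 0.34, limma adjusted p of 0.488). Il18, which epithelium and macrophages make as an inactive precursor, was at 10.79 and 11.05 in the control group and at 10.35 and 10.61 in the MSCT group (difference -0.44, standard error 0.22). In both genes the MSCT arrays lay below the control arrays, for Il33 by a small margin on MSCT replicate 2. In the brighter 50% of rows the unadjusted limma p was 0.0370 for Il33 and 0.0445 for Il18, and with a variance that depends on intensity it was 0.0249 and 0.0557. Il1rl1, the receptor of IL-33, was blank. Of the IL-18 system, Il18rap, a signaling chain of the receptor, was at 7.77 and 8.41 in the control group and at 6.05 and 8.13 in the MSCT group. Its difference of -1.01 (standard error 0.75) came from MSCT replicate 1, and without that array it was 0.03. Il18bp, the binding protein that captures IL-18, differed by -0.24 (standard error 0.29).

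Il1a and Il1r2 had large differences and distant replicates. Il1a, an IL-1 ligand of epithelium and macrophages, was at 5.87 and 7.00 in the control group and at 7.05 and 7.69 in the MSCT group (difference 0.94, standard error 0.47), and control replicate 2 and MSCT replicate 1 were nearly equal. Il1r2, the decoy receptor of IL-1, was at 6.76 and 5.85 in the control group and at 8.63 and 6.69 in the MSCT group. MSCT replicate 1 alone was high, and the difference of 1.36 (standard error 0.74) lay between 0.38 and 2.33 with any 1 array left out. Il1rap, the accessory chain of the IL-1 and IL-33 receptors, differed by -0.07 (standard error 0.30). Of the adaptors that these receptors use, Myd88 differed by 0.29 and Irak2 by -0.38, and neither passed the test.

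The remaining interleukin genes did not pass the test. Il34, a ligand of Csf1r that supports macrophages, was at 10.91 and 11.09 in the control group and at 11.47 and 11.38 in the MSCT group, with close replicates and no overlap (difference 0.43, standard error 0.19, limma adjusted p of 0.478). Il3ra, the IL-3 receptor alpha chain, was at 11.22 and 10.69 against 10.55 and 10.21, also without overlap (difference -0.57, standard error 0.28). Both had an unadjusted p under 0.05 with a variance that depends on intensity and in the brighter 50% of rows. Il22ra2, which encodes the soluble binding protein of IL-22, was at 6.48 and 7.94 in the control group and at 7.40 and 9.48 in the MSCT group. Replicate 2 was the higher array in both groups, and the groups overlapped. The difference of 1.23 (standard error 0.87) was 0.19 without MSCT replicate 2 and 2.27 without MSCT replicate 1. Il10ra, the IL-10 receptor, differed by 0.40 (standard error 0.29), and Il17re, a receptor for IL-17C on epithelium, by -0.31 (standard error 0.36). Of the IL-12 family, Il12a differed by -0.05 (standard error 0.37) and Il23a, the subunit of IL-23, by 0.26 (standard error 0.27).

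The receptors of the IL-6 group showed no difference past the test, which does not show that they were equal. Il6st (gp130), the signaling chain shared by IL-6, IL-11 and oncostatin M, was at 11.06 and 10.03 in the control group and at 10.56 and 10.66 in the MSCT group, so that the control arrays enclosed the MSCT arrays (difference 0.06, standard error 0.39). Il6r was at 6.89 and 7.11 against 6.16 and 7.99, with the MSCT arrays on both sides of the control arrays (difference 0.07, standard error 0.64). Il11ra1 differed by -0.25 (standard error 0.22), and Il13ra1, a chain of the IL-4 and IL-13 receptor, by 0.24 (standard error 0.24). Osmr, the oncostatin M receptor that pairs with gp130 and is not a member of the families, passed the screen, at 7.28 and 7.44 in the control group and at 8.11 and 8.75 in the MSCT group (difference 1.07, standard error 0.28, limma adjusted p of 0.330). Its ligand Osm was blank.

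Beyond the families, 72 genes of the same pathways were listed (other ligands and receptors, adaptors, caspases, Janus kinases, STAT factors and NF-kB), of which 42 had a row and 37 were measured. Of these, 18 were higher and 19 lower by their means, with a median difference of -0.10. Only Osmr (higher) and Ngfr (lower) passed the screen by limma. An unadjusted p under 0.05 was found for 3 of 37 genes higher in the MSCT group (4.80% of all rows and 6.82% of named genes were) and 3 lower (7.17% and 5.44%). Ngfr, a receptor of neurotrophins from the TNF receptor superfamily whose symbol the rule does not take, was at 9.05 and 9.83 in the control group and at 7.92 and 8.67 in the MSCT group (difference -1.15, standard error 0.40, limma adjusted p of 0.400). Ngfr is known from nerves and glia, and beside it, 5 of 7 genes of a list of neurons and glia were lower by their means. Elavl4, a marker of neurons, passed the screen (-1.06, standard error 0.33), Gfap differed by 1.06 in the other direction (standard error 0.49), and the summed intensity of that list ran from 8525 to 8785 over the control arrays and from 6524 to 6781 over the MSCT arrays. The part of these markers in the difference of Ngfr was not tested. Without the screen's limit of 2-fold, Adam17, the protease that releases TNF and its receptors from the cell surface, was lower on both MSCT arrays (11.40 and 11.40, against 11.99 and 11.91; difference -0.55, standard error 0.18, limma adjusted p of 0.380), as was Stat2, a factor of interferon signaling (-0.59, standard error 0.19, limma adjusted p of 0.369).

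The spread between replicates set what could be seen in these genes. In 25 of 38 genes (65.8%, against 67.6% of all rows), replicates of a group lay farther apart than the group means. In 7 of the 38 genes replicates of a group were more than 2-fold apart, and in 2670 of all 18350 rows. Of these 7 genes, 6 were among the dimmest 25% of all rows, as were 1786 of the 2670 rows. The dimmest 25% held 14 of the 38 genes (36.8%). Of the 23 genes in the dimmer 50% of rows, 14 were higher in the MSCT group (median difference 0.25), and of the 15 in the brighter 50%, 10 were lower (median -0.22). Over all rows, 4103 of the 9175 in the dimmer 50% were higher (median -0.07) and 4469 of the 9175 in the brighter 50% were lower (median 0.01). Whether direction differs with brightness was not tested. With any 1 array left out, 26 of 38 genes kept the sign of their difference. This was not counted over all rows.

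**Figure D4:**
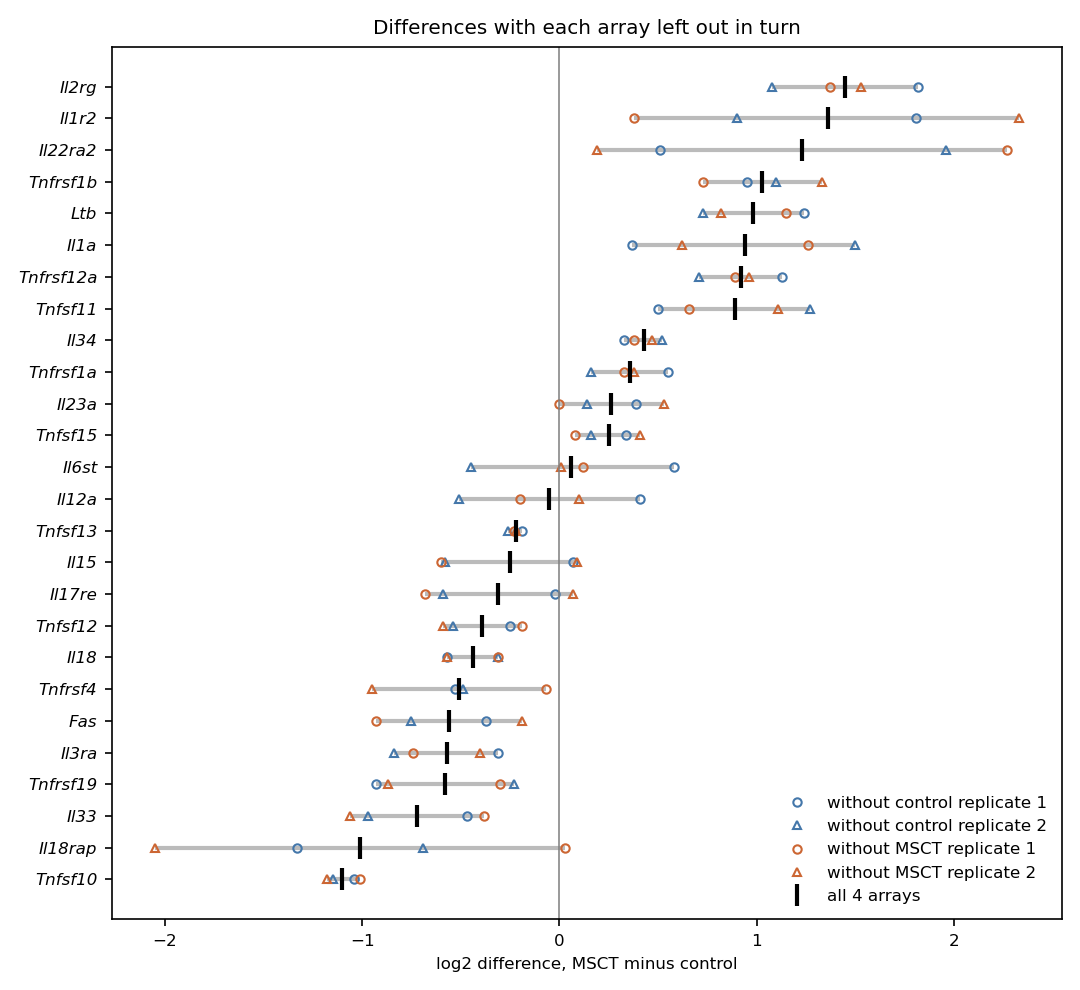
Log2 difference between the groups (x axis, MSCT minus control) for the 26 measured genes named by the rule (y axis), with all 4 arrays (black bar) and with each array left out (open symbols), joined by a grey line. Tnfsf10 and Il2rg stay on 1 side of 0 at a distance of at least 1, while Il1r2, Il22ra2 and Il18rap spread over more than 1.5.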

How the data were processed

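The authors extracted total RNA from colon tissue, hybridized Cy3-labeled cDNA to 4 one-color NimbleGen arrays, each taken here to come from 1 rat, and used NimbleScan. They deposited 1 linear intensity per RefSeq transcript and array. RMA is named in the submitters' processing notes without its role. The handling of background, the scaling of arrays and the reason for blank rows are not given in the sources used here. The deposited intensity was converted to log2 with no pseudocount, scaling or filter. All value columns belong to a sample. The number of arrays limits the precision.

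Gene names came from RefSeq (GRCr8), matched by accession without its version, and cover 38.5% of the measured rows. No coordinates were joined to the arrays. Both groups were fitted on all 18350 measured rows with limma (version 3.58.1, under R 4.3.3), using lmFit and eBayes. The steps were tested on simulated data with known changes. These changes were larger than any difference of the families, and the spreads were shuffled among rows. That test therefore does not cover changes near the limit of 2-fold. The limits of the screen are those of the study's chip methods, which name no test. The study's statistics name one-way analysis of variance, which for 2 groups is called the methods' t-test here. By this t-test 388 rows passed the limits, the same as the number of genes that the study reports, against 850 by limma. Each family gene had 1 row, so choosing another row per gene changed nothing. Named genes are those with an unadjusted p under 0.05, the 3 largest rises and falls of each role, a set of classical genes and listed pathway genes past the screen. Genes outside this rule were picked for the text after seeing their values. The members and lists were chosen with earlier results of these data known. The alternatives tried were the methods' t-test, 2 normalizations (quantile, and medians made equal), removal of dim rows (25% or 50%), an intensity trend in the variance, a replicate block, omission of each array, a fold limit of 1.5 and folds from linear means. Tables and figures were made in Python 3.11.15 (pandas 2.3.3, matplotlib 3.10.9).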

Additional observations from a re-analysis of the deposited data

How the results depend on the processing

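There were 14 alternatives. Tnfsf10 passed the screen under each one that kept all 4 arrays. Il2rg passed under each of these in which it was tested except the methods' t-test (it is among the dimmer 50% of rows). The fold limit of 1.5 and the choice of another row per gene could not fail a gene that had passed, so they are no check. With any 1 array left out, the difference lay between -1.18 and -1.01 for Tnfsf10 and between 1.08 and 1.82 for Il2rg. By the methods' t-test, 1 family gene passed the screen (Tnfsf10) with 0 higher in the MSCT group, and 388 of all 18350 rows passed it. Of the other pathway genes 0 passed. An unadjusted p under 0.05 by that test was found for 3 family genes, which was not counted over all rows. Without the dimmest 25% of rows, 3 of 24 genes passed (589 of 13762 rows), the median difference was -0.16 and 1 other pathway gene passed. In 5 genes both MSCT arrays lay above the control arrays and in 8 both lay below, which was not counted over these rows. Without the dimmest 50%, 1 of 15 genes passed the screen (251 of 9175 rows), 0 of them higher, and 0 other pathway genes passed. An adjusted p of 0.05 by limma was passed by 1 gene (Tnfsf10, with 247 of 9175 rows), and the median was -0.22. In 3 of the 15 genes both MSCT arrays lay above the control arrays (2411 of 9175 rows), and in 7 both lay below (2261 of 9175 rows). These 2 settings test fewer genes. With a variance that depends on intensity, 2 of 38 genes passed an adjusted p of 0.05 by limma (Tnfsf10 and Tnfrsf12a), as did 387 of 18350 rows. With a fold limit of 1.5, all 5 genes with an unadjusted limma p under 0.05 passed, 4 of them higher. All rows were not counted at this fold limit. At that p without a fold limit, the 5 genes were 13.2%, against 12.0% of all rows. The 4 higher genes were 10.5%, against 4.80% of all rows and 6.82% of named genes, again without a fold limit.

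With any 1 array left out, 4 to 6 genes passed the screen, 3 to 4 of them higher and 1 to 3 lower, 5 to 8 had an unadjusted p under 0.05, and 0 passed after adjustment by limma. Over all 18350 rows the count past the screen also went up, from 850 to between 934 (without control replicate 1) and 1565 (without control replicate 2). The median difference lay between -0.10 and 0.08, 12 to 16 genes had every MSCT array above and 13 to 16 every MSCT array below the control arrays, which fewer arrays allow more readily, and 1 to 2 other pathway genes passed. The count was 6 without MSCT replicate 2, which added Il18rap, Il1r2 and Il33, and 5 without control replicate 2, which added Il1a and Tnfsf11. Without control replicate 1 or MSCT replicate 1, Tnfrsf1b did not pass. The sign changed with an array left out in 12 of the 38 genes, a count that was not made over all rows. Of the 26 named by the rule these were Il12a (-0.51 to 0.41, and 0.02 after quantile normalization), Il15 (-0.60 to 0.09), Il17re (-0.68 to 0.07), Il18rap (-2.05 to 0.03), Il6st (-0.45 to 0.58) and Il23a (-0.00 to 0.53), and the others were Il18bp, Il1rap, Il9r, Il6r, Il7 and Tnfrsf11b. The cause was not tested.

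The replicate numbers of the labels do not say that arrays are paired. The deviations of replicate 1 from replicate 2 in both groups correlated over all rows (r = 0.234). With the replicate number as a block, 5 genes passed the screen (971 of 18350 rows), 4 of them higher, with Il1r2 and Il22ra2 added. In this fit, 11 family genes had an unadjusted p under 0.05. All measured rows were not counted at that p with this block, with 1 array left out or by the methods' t-test. Whether the family counts at that p exceed the share of all rows was therefore not tested in these settings.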
